A study of Mus musculus with 18 samples.

Results

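The genes described here are 36 genes of glycolysis, glucose uptake, lactate transport and the response to low oxygen. They were listed by symbol and role, with earlier results of these data known, and were matched by symbol to Ensembl identifiers. All 36 were found among the 35275 genes of the table of deposited values, and 34 of them reached 0.5 FPM (fragments scaled for library size) in at least 3 of the 18 libraries and were tested. The other two, Slc2a4 (the insulin-regulated glucose transporter) and Epas1 (the second oxygen-regulated HIF subunit), stayed below that level.

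The study overexpressed MUNC, a noncoding RNA from the region before the myogenic regulator Myod1, in C2C12, a mouse myoblast line. The labels name 3 lines: control cells of wild-type genotype, a line with the spliced form of MUNC (called MUNC spliced here) and a line with its genomic form (MUNC genomic). Each line was taken at subconfluence in growth medium (GM, high-glucose DMEM with 20% fetal bovine serum) and after 3 days in differentiation medium (DM3, 2% horse serum), with 3 biological replicates in each of the 6 groups. Sequencing was of polyadenylated RNA. All lines share the C2C12 background, which the labels call PAX7 negative, and all media were based on high glucose. How many clones each line held, which vector the controls carried and the oxygen level are not given in the sources used here. No gene is named MUNC in the files, so its level was not analysed here.

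Glycolysis converts glucose to pyruvate. Hexokinase, phosphofructokinase and pyruvate kinase catalyse its irreversible steps, and lactate dehydrogenase with the monocarboxylate transporters turns pyruvate into lactate and moves lactate across the membrane. The pyruvate dehydrogenase kinases hold pyruvate back from oxidation in mitochondria. In low oxygen the prolyl hydroxylases no longer mark HIF-1 alpha for degradation, and HIF binds short DNA elements near many genes of this pathway. Myoblasts in culture rely heavily on glycolysis, and muscle fibres use it during contraction.

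Recovered depth was 38416702 to 68788327 reads per library, and replicates correlated at r of 0.980 to 0.996 over the tested genes. Control cells were low in Myod1 and in myotube markers. Myod1 was at 0 to 0.221 FPM in the 6 control libraries. The 7 myoblast markers, Myod1 among them, summed to 144 to 178 FPM in control GM and 282 to 394 FPM in control DM3. Their sum was 354 to 504 FPM in MUNC spliced GM and 493 to 912 FPM in MUNC spliced DM3. In MUNC genomic cells it was 422 to 732 FPM in GM and 1149 to 1337 FPM in DM3. The 10 myotube markers summed to 9.99 to 18.1 FPM in control DM3, with Myh1 and Myh4 at 0 in all 3 libraries, against 69.2 to 132.7 FPM in MUNC genomic DM3 and 186 to 1027 FPM in MUNC spliced DM3. In GM they summed to 12.5 to 31.96 FPM in control, 22.8 to 47.2 in MUNC spliced and 8.32 to 13.3 in MUNC genomic cells. From GM to DM3, 2 of the 9 tested rose and 1 fell in control cells (29.6% and 28.6% of all genes). In MUNC spliced cells 9 rose (17.2%) and in MUNC genomic cells 7 (26.3%). Differentiation below therefore names the change of medium. The 8 cycling-cell markers summed to 1929.6 to 3386 FPM in GM and 239 to 434 FPM in DM3 in all libraries but replicate 1 of MUNC spliced DM3, at 1164 FPM. That library also had the highest myotube sum, so counts that use it are also given without it. The 6 fibroblast markers summed to 3161 to 6494 FPM in MUNC spliced cells and 918 to 2974 FPM in the other lines, with Thy1 under 1 FPM in every group mean. The 5 endothelial markers summed to 0.250 to 0.743 FPM in control cells, 0.880 to 1.72 FPM in MUNC spliced cells and 4.04 to 7.62 FPM in MUNC genomic cells, where Cdh5 was called higher than in control in both media and the other 4 were under 1 FPM. The 5 macrophage markers summed to at most 6.35 FPM. The part of cell makeup in the differences below was not tested, and in bulk RNA fewer cells of a type and less RNA per cell cannot be told apart.

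Levels differed widely among the 36 genes. Per kilobase of merged exons, the only scale on which genes are compared here, the highest mean in control GM belonged to Pkm (pyruvate kinase, 658 ± 17.7 FPM per kb, SD, n = 3), followed by Ldha (the lactate dehydrogenase subunit of muscle, 511 ± 30.6), Aldoa (aldolase, 424 ± 30.3) and Tpi1 (triosephosphate isomerase, 308 ± 29.3). These 4 were also the highest in control DM3, where Aldoa stood first at 713 ± 60.8 FPM per kb. At the other end, Slc16a3, Aldoc, Ldhb, Slc2a3, Slc2a4 and Epas1 were all below 0.5 FPM per kb in both control groups. Slc2a1 made up at least 99.5% of the 3 glucose transporters in every group mean. Merged exons include every annotated exon, whether or not these cells use it (4133 bases for Gapdh and 5379 for Eno1). Rankings and shares per kilobase depend on that length. The values do not separate the M1 and M2 products of Pkm, and near-identical pseudogene copies of genes such as Gapdh, Ldha, Aldoa, Pgk1, Tpi1, Eno1, Pgam1 and Pkm could take or lend reads, so these levels are uncertain to that extent.

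Promoters are printed for 4 members that the results turn on: Slc16a3 (the lactate exporter MCT4), with the largest rise against control on the log2(FPM + 1) scale, Eno2 (the neuronal enolase), with the largest fall against control, Slc16a1 (the lactate transporter MCT1), lower than control in MUNC spliced cells and higher in MUNC genomic DM3, and Bnip3 (a mitophagy receptor and classic HIF target), which rose on differentiation. Each sequence is the 250 bases before the RefSeq transcription start in GRCm38.p6, 5′ to 3′ on the gene's strand, and capitals mark the core of the HIF element, ACGTG or GCGTG, on either strand (CACGT and CACGC are their reverse complements, and CACGTG counts on both strands).
Slc16a3 (chr11:120948817-120949066, plus strand): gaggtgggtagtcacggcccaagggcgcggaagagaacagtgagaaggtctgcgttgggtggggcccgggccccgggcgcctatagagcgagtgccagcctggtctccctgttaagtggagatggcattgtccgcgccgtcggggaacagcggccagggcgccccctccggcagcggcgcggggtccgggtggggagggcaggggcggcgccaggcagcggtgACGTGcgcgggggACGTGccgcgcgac
Slc16a1 (chr3:104638414-104638663, plus strand): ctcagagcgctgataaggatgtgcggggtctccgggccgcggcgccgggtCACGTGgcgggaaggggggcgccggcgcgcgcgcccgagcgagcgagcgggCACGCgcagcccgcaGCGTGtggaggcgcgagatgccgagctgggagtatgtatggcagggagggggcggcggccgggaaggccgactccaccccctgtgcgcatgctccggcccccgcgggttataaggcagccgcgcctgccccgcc
Bnip3 (chr7:138909507-138909756, minus strand): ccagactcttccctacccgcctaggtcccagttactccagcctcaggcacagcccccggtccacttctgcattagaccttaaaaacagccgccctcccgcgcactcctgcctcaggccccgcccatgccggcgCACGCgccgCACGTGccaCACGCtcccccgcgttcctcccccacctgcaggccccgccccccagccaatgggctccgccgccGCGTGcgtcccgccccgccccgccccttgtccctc
Eno2 (chr6:124769674-124769923, minus strand): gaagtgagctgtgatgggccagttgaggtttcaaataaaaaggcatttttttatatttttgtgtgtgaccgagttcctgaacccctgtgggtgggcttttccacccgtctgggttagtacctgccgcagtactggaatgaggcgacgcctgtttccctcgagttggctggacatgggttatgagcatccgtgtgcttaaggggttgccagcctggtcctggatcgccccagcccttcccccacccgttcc
Slc16a3 held 2 matches of ACGTG, Slc16a1 held 2 of ACGTG and 2 of GCGTG, Bnip3 held 2 and 3, and Eno2 held none in this window. Of the 36 genes, 32 had a RefSeq promoter, with 47 windows. ACGTG was present in 22 of these windows (46.8%), against 16.6% of all 32851 windows of the same length, and either sequence was present in 37 (78.7%), against 38.6%. By gene, ACGTG was present in 19 of 32 (59.4%), against 18.5% of 27025 genes, and either sequence in 29 (90.6%), against 41.5%. Windows of the same gene can overlap. The background holds all RefSeq promoters, whether or not the gene was expressed here. The 36 genes were listed from pathways on which HIF acts, so these shares are a description and no test. A match describes letters in a window and does not show binding.

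**Figure D1:**
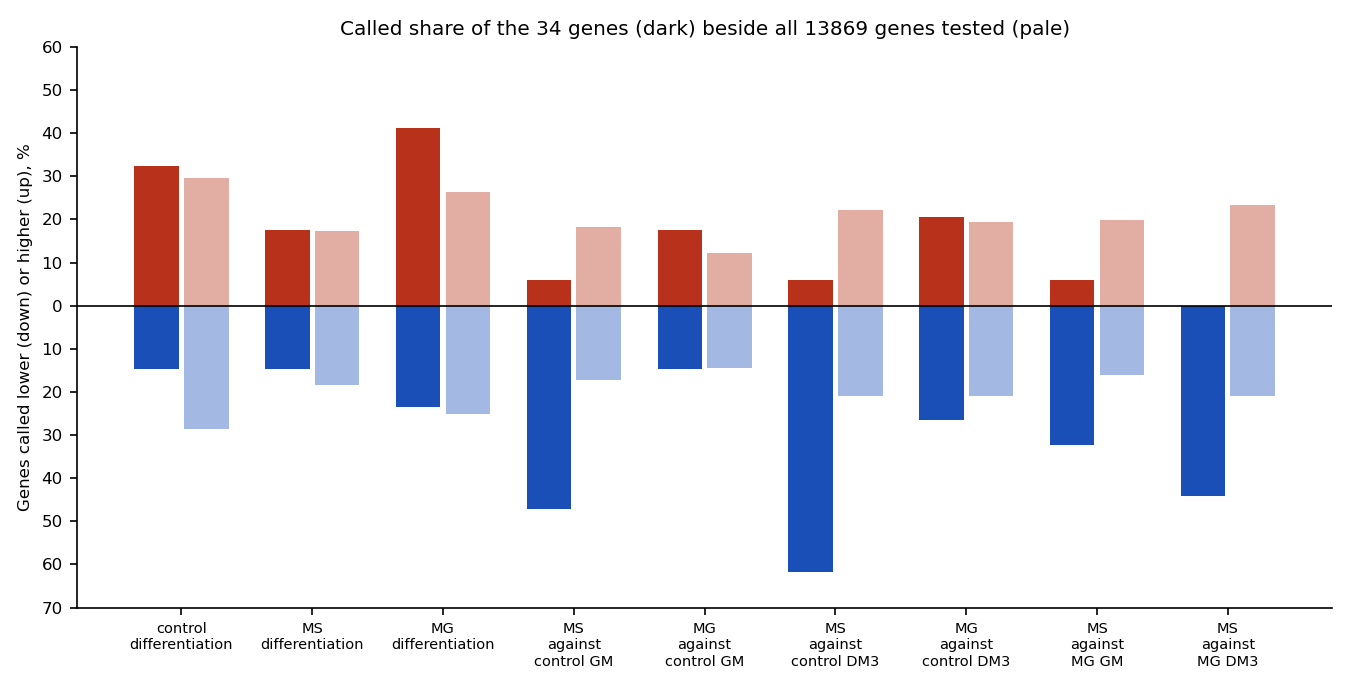
Share of genes called higher (bars above 0) or lower (bars below 0) in each of the 9 direct comparisons, in percent of the genes tested. Dark bars are the 34 tested genes of the list and pale bars all 13869 tested genes. MS is MUNC spliced and MG is MUNC genomic. The longest bar of the list is that of genes lower in MUNC spliced DM3 than in control DM3, 21 of 34, beside 21.0% of all genes.

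From GM to DM3 in control cells, 4 of 6 hexose-phosphate enzymes and 3 of 4 hypoxia targets rose and none of either group fell. Of the 4 pyruvate dehydrogenase kinases 2 rose and 1 fell, and of the 9 genes from aldolase to pyruvate kinase 2 rose and 3 fell. Of the 34 genes, 16 were called (limma, Benjamini-Hochberg adjusted p under 0.05 over all tested genes), beside 58.2% of all genes, so the share called was below the background. They split into 11 higher (background 29.6%) and 5 lower (28.6%). Libraries did not overlap between the media in 21 of the 34 genes, beside 8654 of all 13869. For most genes with library values below, no overlap was a condition of being named, so it describes them and adds no support. In the first steps Hk1 (hexokinase 1, 0.59), Gpi1 (glucose-6-phosphate isomerase, 1.10), Pfkl (0.40) and Pfkm (0.81), the liver and muscle phosphofructokinases, rose in log2 change of FPM + 1, the scale of all changes given here. Gpi1 measured 435, 494 and 457 FPM in the 3 control GM libraries and 789, 1063 and 1164 FPM in control DM3, and every DM3 library lay above every GM library (log2 change 1.10, SE 0.15, adjusted p = 1.09e-05). Between aldolase and pyruvate kinase, Aldoa rose (0.75) and Gapdh, the glyceraldehyde-3-phosphate dehydrogenase, fell (-0.52).

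The enolases went in opposite directions in control cells. Eno2 measured 13.5, 17.5 and 11.8 FPM in GM and 59.4, 83.2 and 77.7 FPM in DM3, with no overlap (log2 change 2.29, SE 0.24, adjusted p = 1.38e-06). Eno1, the ubiquitous enolase, measured 792, 698 and 854 FPM in GM and 516, 458 and 532 FPM in DM3 (log2 change -0.64, SE 0.17, adjusted p = 0.00388). Per kilobase, Eno2 went from 2.08% ± 0.631 (SD, n = 3) of the sum of Eno1 and Eno2 in control GM to 14.4% ± 2.79 in control DM3. Eno3, the muscle enolase, is not in the list and not in that sum. It measured 169 to 867 FPM over the 18 libraries on 1739 merged exon bases, against 5379 bases for Eno1. Among all enolases the share of Eno2 would thus be lower, and it was not computed. At the lactate end Slc16a1 measured 254, 253 and 249 FPM in GM and 177, 161 and 174 FPM in DM3, again without overlap (log2 change -0.56, SE 0.09, adjusted p = 8.96e-05). Slc16a3 stayed between 1.10 and 2.21 FPM in all 6 control libraries.

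Among the pyruvate dehydrogenase kinases of control cells, Pdk1 and Pdk2 rose and Pdk4 fell. Pdk2 measured 6.06, 6.21 and 3.66 FPM in GM and 21.99, 28.2 and 33.2 FPM in DM3 (log2 change 2.20, SE 0.22, adjusted p = 1.00e-06), and Pdk1 rose by 1.73. Pdk4, the starvation-induced member of the family, measured 47.6, 49.96 and 57.7 FPM in GM and 23.5, 43.2 and 32.01 FPM in DM3, where the highest DM3 library lay just under the lowest GM library (log2 change -0.67, SE 0.19, adjusted p = 0.00528). Of the hypoxia targets, Bnip3 measured 63.4, 59.6 and 37.7 FPM in GM and 231, 195 and 166 FPM in DM3, with every DM3 library higher (log2 change 1.88, SE 0.32, adjusted p = 1.20e-04). Vegfa (the angiogenic growth factor, 0.76) and Ndrg1 (a stress-response gene, 0.81) also rose, and Ankrd37 did not pass (0.14, adjusted p = 0.430). Hif1a itself was not called (0.45, adjusted p = 0.103), but a fit with the replicate number as a block called it (adjusted p = 0.0208), together with Hk2 (0.0359), Pkm (0.0370) and Ldha (0.0288), all 3 lower. Of the 16 calls, 15 held in every alternative analysis and without each single library, the exception being Pfkl.

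On differentiation of MUNC spliced cells Eno2 (1.30), Pdk1 (1.18) and Bnip3 (1.03) rose most, and none of the 6 hexose-phosphate enzymes was called. There were 11 calls (background 35.6%), 6 higher (17.2%) and 5 lower (18.4%). Eno2 measured 3.26, 5.30 and 3.53 FPM in GM and 7.69, 13.4 and 13.5 FPM in DM3 (log2 change 1.30, SE 0.24, adjusted p = 7.07e-04), and its DM3 libraries were all higher. Ndrg1 measured 108, 118 and 114 FPM in GM and 195, 201 and 278 FPM in DM3 (log2 change 0.96, SE 0.15, adjusted p = 2.08e-04), also without overlap. Pdk1 measured 39.6, 68.2 and 31.1 FPM in GM and 112, 122 and 73.9 FPM in DM3 (log2 change 1.18, SE 0.32, adjusted p = 0.00860), and its call ended without GM replicate 3 (adjusted p = 0.0554).

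Among the 5 genes that fell in MUNC spliced cells, Pkm measured 2647, 2488 and 2745 FPM in GM and 2159, 1791 and 1461 FPM in DM3 (log2 change -0.56, SE 0.15, adjusted p = 0.0100). Gapdh measured 529, 536 and 616 FPM in GM and 509, 408 and 317 FPM in DM3 (log2 change -0.47, SE 0.15, adjusted p = 0.0219). Slc16a1 measured 100.3, 117 and 109.9 FPM in GM and 82.1, 80.2 and 94.6 FPM in DM3 (log2 change -0.35, SE 0.09, adjusted p = 0.00910). The DM3 libraries lay below the GM libraries in all 3 genes, by a narrow margin. Of the 11 calls, 4 (Aldoc, Eno2, Vegfa and Ndrg1) held in every alternative and without each library. The Pkm call ended without DM3 replicate 3 (adjusted p = 0.0630). The count was 6 without MUNC spliced GM replicate 3, 7 without DM3 replicate 2 and 12 without DM3 replicate 1, and 5 where only the compared groups were fitted. Calls over all genes moved as well, from 4933 to 3297, 3693, 5218 and 3046 in the same order.

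Differentiation of MUNC genomic cells gave 22 calls (background 51.4%), 14 higher (26.3%) and 8 lower (25.1%). Pdk1, Pdk2 and Bnip3 led the rises. Pdk1 measured 40.9, 60.8 and 25.6 FPM in GM and 214, 143 and 183 FPM in DM3 (log2 change 2.13, SE 0.32, adjusted p = 4.39e-05). Pdk2 measured 6.80, 8.51 and 5.80 FPM in GM and 27.7, 28.5 and 31.05 FPM in DM3 (log2 change 1.92, SE 0.22, adjusted p = 5.22e-06). Bnip3 measured 34.7, 46.7 and 27.96 FPM in GM and 180.3, 108 and 106 FPM in DM3 (log2 change 1.80, SE 0.32, adjusted p = 2.36e-04). In each of these genes the lowest DM3 library was at least 2 times the highest GM library. Hif1a also rose here (log2 change 1.01, SE 0.23, adjusted p = 0.00170), from 389, 401 and 221 FPM to 725, 636 and 607 FPM.

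The falls in MUNC genomic cells were led by Pdk4, at 226, 218 and 228 FPM in GM and 107, 131 and 109.9 FPM in DM3 (log2 change -0.95, SE 0.19, adjusted p = 5.01e-04). Hk2, the insulin-responsive hexokinase of muscle, measured 63.9, 61.1 and 96.1 FPM in GM and 40.05, 31.5 and 45.3 FPM in DM3 (log2 change -0.89, SE 0.22, adjusted p = 0.00289). Pfkp, the platelet phosphofructokinase, measured 51.4, 75 and 51.7 FPM in GM and 34.9, 33.4 and 32.5 FPM in DM3 (log2 change -0.78, SE 0.22, adjusted p = 0.00762). None of the 3 overlapped between the media, which the naming rule required, and 8705 of all 13869 genes did not overlap either. Of the 22 calls, 13 held in every alternative and without each library. The plot of DM3 against GM shows that Eno2, Pdk1, Pdk2, Bnip3 and Ndrg1 were called higher in all 3 lines, and Gapdh lower in all 3. In MUNC spliced cells the Pdk2 and Bnip3 libraries overlapped between the media, and each call ended in 4 of 6 fits that left out 1 library (adjusted p up to 0.0858 and 0.107). The Gapdh call in MUNC genomic cells (-0.38, adjusted p = 0.0423) ended in 5 of 6 fits that left out 1 library (adjusted p up to 0.174) and that in MUNC spliced cells in 3 of 6 (up to 0.135).

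**Figure D2:**
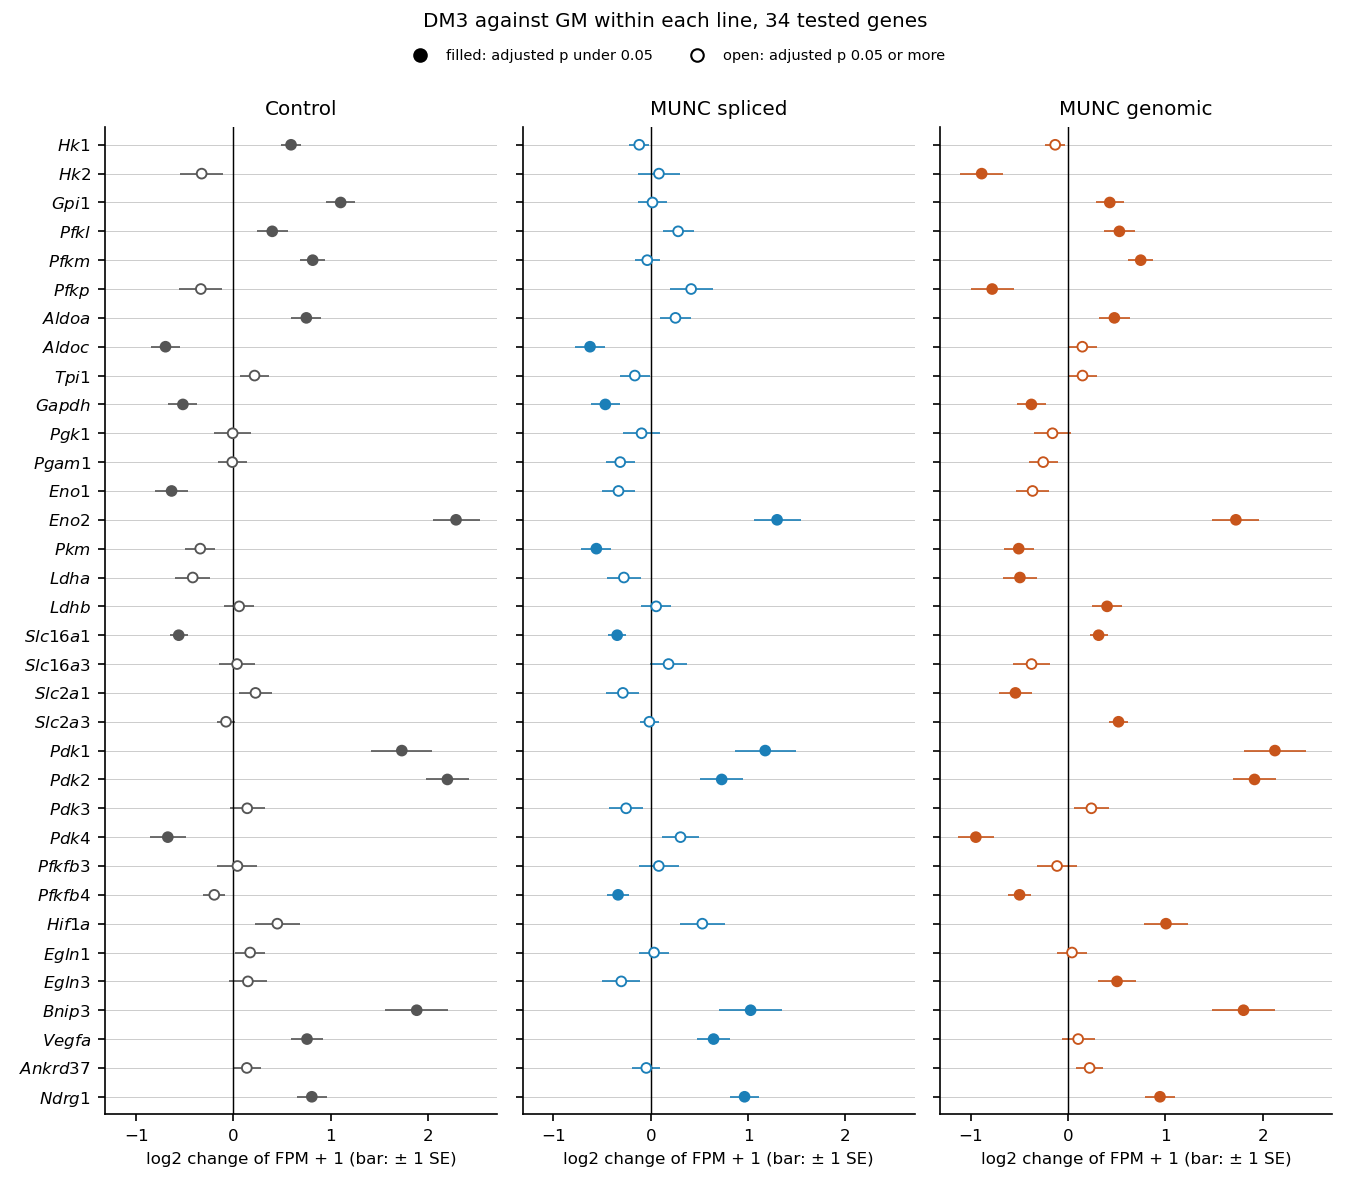
log2 change of FPM + 1 from GM to DM3 in control, MUNC spliced and MUNC genomic cells, for the 34 tested genes in order of role. Points are limma estimates from 3 libraries per group, bars are 1 SE, and filled points had an adjusted p under 0.05. Eno2 lies to the right in all 3 panels (2.29, 1.30 and 1.72), and Gpi1 lies at 1.10 in control and 0.02 in MUNC spliced cells.

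MUNC spliced cells had lower levels of most of the glycolytic route than control cells, in both media. In GM 18 genes were called (background 35.5%), 16 lower (17.3%) and 2 higher (18.2%), with a median change of -0.44 over the 34 genes and -0.02 over all genes. In DM3 23 were called (43.3%), 21 lower (21.0%) and 2 higher (22.3%), with medians of -0.62 and 0.01. The DM3 split was the same without replicate 1 of MUNC spliced DM3 (21 lower, 2 higher) and 20 lower, 2 higher without replicate 3, which had the lowest values of several enzymes. Of all genes, 18.7% and 18.9% were lower in these fits. In GM, scaling all libraries to equal sums left 11 lower and 2 higher and moved the share of all called genes that were higher from 51.3% to 66.1%. The media share no libraries, and the overlap of calls between media was not counted over all genes. Of the listed genes 13 were lower in both, which is 81.2% of those lower in GM and 61.9% of those lower in DM3. They were Hk2, Gpi1, Pfkl, Aldoa, Tpi1, Gapdh, Pgk1 (phosphoglycerate kinase), Pgam1 (phosphoglycerate mutase), Eno2, Ldha, Slc16a1, Slc2a1 and Egln3. Of these, Pfkl, Aldoa, Pgam1 and Slc2a1 in GM and Ldha in DM3 lost their call in at least 1 alternative or left-out library.

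**Figure D3:**
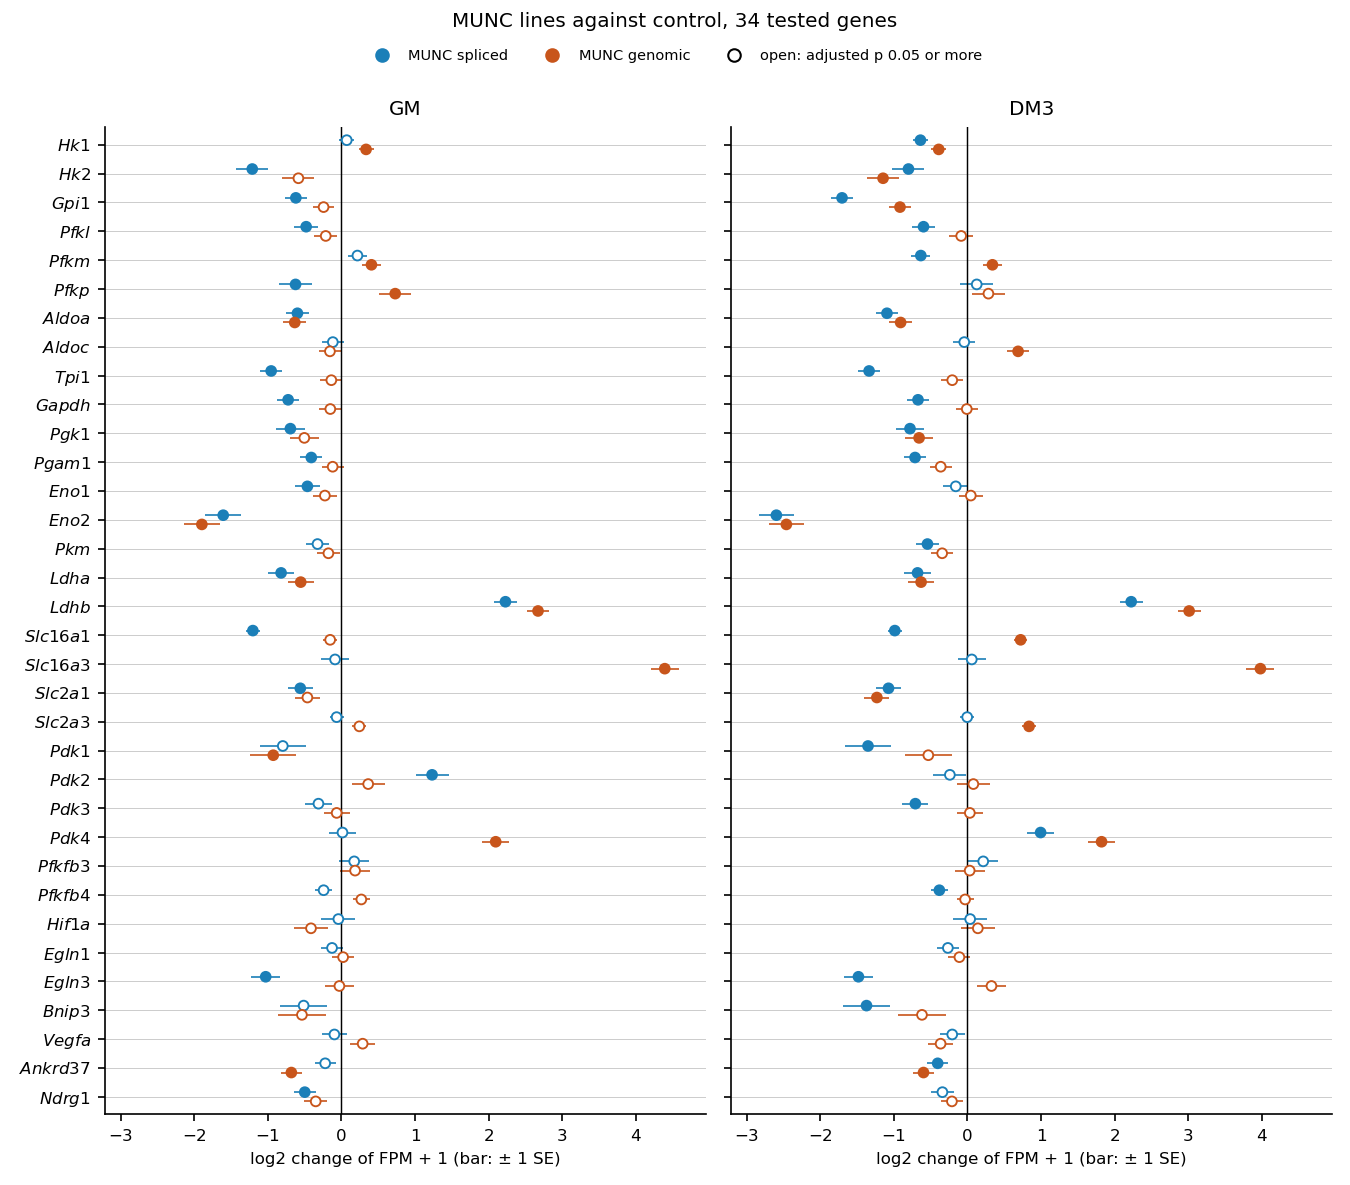
log2 change of FPM + 1 against control in GM (left) and DM3 (right) for MUNC spliced (blue) and MUNC genomic (orange) cells, for the 34 tested genes in order of role. Bars are 1 SE, filled points had an adjusted p under 0.05, and both lines are set against the same control libraries of that medium. Blue points from Aldoa to Ldha lie at or left of 0, and orange points for Slc16a3 lie at 4.39 in GM and 3.98 in DM3.

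Of the hexose-phosphate enzymes, 4 of 6 were lower in MUNC spliced GM and 5 of 6 in DM3, beside 17.3% and 21.0% of all genes. Hk2 measured 90.3, 103 and 139 FPM in control GM and 45.1, 34.98 and 63.1 FPM in MUNC spliced GM (log2 change -1.21, SE 0.22, adjusted p = 4.70e-04), and 82.8, 80.9 and 96.8 against 54.6, 42.1 and 51.9 FPM in DM3 (-0.80). The lines did not overlap in either medium. Gpi1 measured 257, 326 and 323 FPM in MUNC spliced GM (-0.62 against control) and 312, 325 and 276 FPM in DM3, where each control library held over 2 times the highest MUNC spliced library (log2 change -1.70, SE 0.15, adjusted p = 1.53e-07). Pfkm was not called in GM (0.22) and was lower in DM3 (-0.63).

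From aldolase to pyruvate kinase, 7 of the 9 genes were lower in each medium, and none was higher. Of all genes, 17.3% in GM and 21.0% in DM3 were lower, and 18.2% and 22.3% higher. Eno2 showed the largest fall of all 34 genes, from the control values above to 3.26, 5.30 and 3.53 FPM in GM (log2 change -1.61, SE 0.24, adjusted p = 9.56e-05) and 7.69, 13.4 and 13.5 FPM in DM3 (log2 change -2.60, SE 0.24, adjusted p = 3.83e-07), with no overlap. Tpi1 measured 938, 823 and 783 FPM in control GM and 437, 424 and 447 FPM in MUNC spliced GM (-0.96), and 964, 993 and 992 against 448, 453 and 289.6 FPM in DM3 (-1.34). Each MUNC spliced library was thus well below each control library. Gapdh, often used as a reference gene, was lower in GM (log2 change -0.72, adjusted p = 0.00129) and in DM3 (-0.67, adjusted p = 0.00164). Pkm passed in DM3 (-0.54, adjusted p = 0.00906) and not in GM (-0.33, adjusted p = 0.110), and its DM3 call ended without MUNC spliced replicate 3 (adjusted p = 0.0517). Eno1 passed in GM (-0.46, adjusted p = 0.0403), a call lost in 4 of 6 fits that left out 1 library (adjusted p up to 0.128).

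At the lactate end the members of each pair differed. Ldha was lower in MUNC spliced cells in both media (-0.82 and -0.68), and Ldhb, the heart subunit of lactate dehydrogenase, was higher in both (2.23 and 2.22). In GM Ldhb measured 0.188, 0.177 and 0.0307 FPM in control (11, 10 and 2 reads) and 4.72, 4.62 and 3.61 FPM in MUNC spliced cells. In DM3 it measured 0.115, 0.0395 and 0.405 FPM in control cells and 4.10, 4.98 and 4.45 FPM in MUNC spliced DM3, so all MUNC spliced libraries were above all control libraries. In the authors' deposited tables its log2 fold change was 5.06 in GM and 4.58 in DM3. Ldhb reached a mean of at most 2.14% of Ldha plus Ldhb per kilobase in any group. Slc16a1 measured 100.3, 117 and 109.9 FPM in MUNC spliced GM against 254, 253 and 249 FPM in control (log2 change -1.20, SE 0.09, adjusted p = 6.18e-08), and was lower in DM3 too (log2 change -0.99). Slc16a3 was not called in either medium (-0.09, adjusted p = 0.754 in GM and 0.06, adjusted p = 0.829 in DM3).

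Glucose entry and its regulators followed in part. Slc2a1, the constitutive glucose transporter GLUT1, was lower in GM (-0.56, adjusted p = 0.0179) and DM3 (-1.07, adjusted p = 9.99e-05). The GM call ended without control replicate 3 or MUNC spliced replicate 2 (adjusted p up to 0.0842). Among the kinases, Pdk2 was higher in MUNC spliced GM, at 11.3, 18.99 and 11.4 FPM against 6.06, 6.21 and 3.66 FPM in control (log2 change 1.23, SE 0.22, adjusted p = 5.14e-04). Pdk4 was higher in DM3, at 59.6, 55.4 and 81.6 against 23.5, 43.2 and 32.01 FPM (log2 change 0.99, SE 0.19, adjusted p = 4.30e-04), and Pdk1 (-1.35) and Pdk3 (-0.71) were lower there. With the replicate block Pdk1 and Pdk3 were also called lower in GM (adjusted p = 0.0167 and 0.00290). Pfkfb3, which makes the activator of phosphofructokinase, was not called in any of the 9 direct comparisons.

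In the oxygen-sensing group, Egln3, the HIF prolyl hydroxylase that is itself a HIF target, was lower in MUNC spliced cells. It measured 65.4, 58.1 and 48.5 FPM in control GM and 30.97, 30.5 and 21.7 FPM in MUNC spliced GM (-1.03), and 71.8, 53.6 and 65.6 against 25.4, 21.6 and 19.4 FPM in DM3 (log2 change -1.48, SE 0.19, adjusted p = 1.50e-05). All MUNC spliced libraries were below all control libraries. Hif1a (-0.04 in GM and 0.04 in DM3) and Egln1 (-0.13 and -0.27) were not called. Bnip3 was lower in DM3, at 96.01, 106 and 41.3 FPM (log2 change -1.37, SE 0.32, adjusted p = 0.00268), with no overlap with the control values and the lowest value in replicate 3. Vegfa was not called in either medium. Of the calls against control, 11 of 18 in GM and 19 of 23 in DM3 held in every alternative and without each library.

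**Figure D4:**
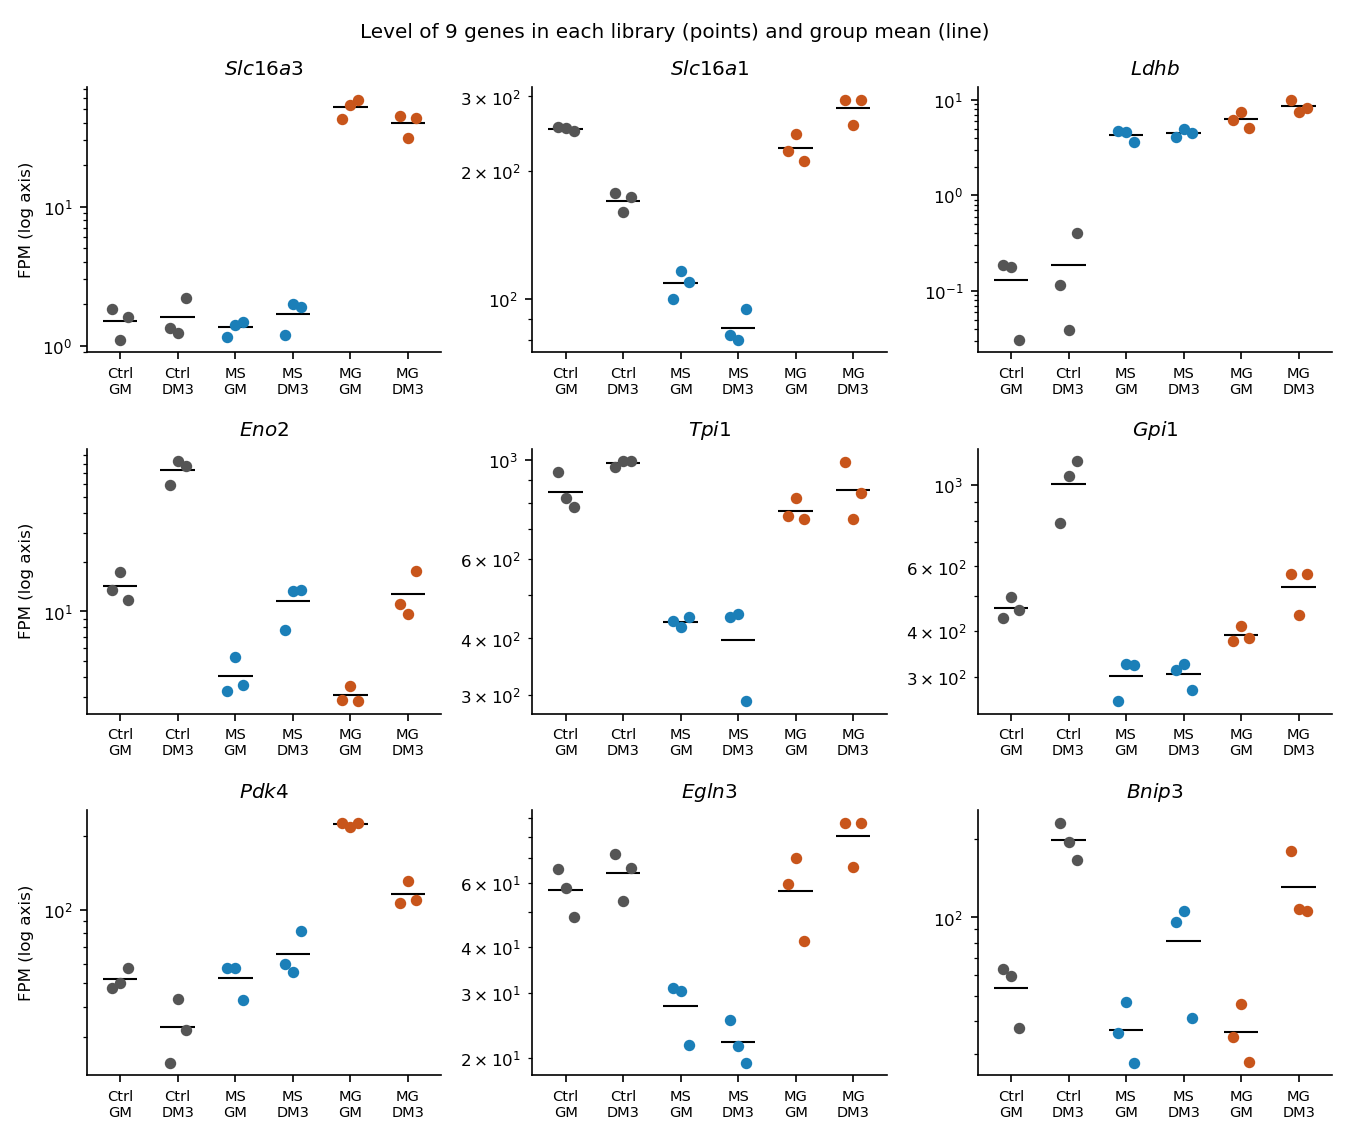
FPM on a log axis of 9 genes in each of the 18 libraries, with points for libraries and a line for the mean of each group. Ctrl is control, MS is MUNC spliced and MG is MUNC genomic. The MUNC genomic libraries stand between 31.3 and 58.8 FPM for Slc16a3, against 2.21 FPM or less elsewhere.

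On the log2(FPM + 1) scale Slc16a3, Ldhb and Pdk4 rose most in MUNC genomic cells against control, in both media. Slc16a3 came first on the log2(FPM + 1) scale, whereas in the authors' deposited tables Ldhb came first, with log2 fold changes of 5.64 in GM and 5.53 in DM3 against 5.14 and 4.66 for Slc16a3. In DM3 Slc2a3 (3.84) and Aldoc (3.19) also stood above Pdk4 (1.83) there. Aldoc was called higher in MUNC genomic DM3 here too, but reached at most 0.919 FPM in any library. In GM 11 genes were called (background 26.8%), 6 higher (12.2%) and 5 lower (14.5%), and in DM3 16 (40.3%), 7 higher (19.3%) and 9 lower (20.9%). The median change was -0.15 in GM and -0.10 in DM3, against -0.03 and -0.01 over all genes. The GM count was 7 without control replicate 1 and 7 without MUNC genomic replicate 2. Over all genes the calls were 3020 and 2793 in these fits, beside 3711 with all libraries. Equal library sums moved the share of all called genes that were higher in GM from 45.6% to 56.2%, and quantile normalization left 7 higher and 3 lower among the listed genes. A fit of the compared groups only gave 3 higher and 6 lower, beside 2523 calls over all genes. Between the media 4 higher genes were shared (Pfkm, Ldhb, Slc16a3 and Pdk4, 66.7% of those in GM and 57.1% of those in DM3), as were 4 lower ones (Aldoa, Eno2, Ldha and Ankrd37, 80% and 44.4%). The same overlap was not counted over all genes. Pfkm measured small changes (0.41, adjusted p = 0.0252 in GM and 0.34, adjusted p = 0.0429 in DM3), and its calls ended in 3 of 6 and 5 of 6 fits that left out 1 library (adjusted p up to 0.134 and 0.177).

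Slc16a3, whose promoter held 2 ACGTG matches, measured 42.6, 54.02 and 58.8 FPM in MUNC genomic GM against 1.83, 1.10 and 1.61 FPM in control (log2 change 4.39, SE 0.19, adjusted p = 2.23e-11). In DM3 it measured 44.7, 31.3 and 43.5 against 1.34, 1.22 and 2.21 FPM (log2 change 3.98, SE 0.19, adjusted p = 6.63e-11). All 6 MUNC genomic libraries stood more than 10 times above all 12 others. Per kilobase, Slc16a3 was 15.99% ± 2.56 of Slc16a1 plus Slc16a3 in MUNC genomic GM and 10.5% ± 1.08 in DM3, and at most a mean of 1.61% in the other groups. Slc16a1 was not called in GM (-0.15, adjusted p = 0.249), and in DM3 it was higher than in control, at 295, 257 and 295 FPM (log2 change 0.72, SE 0.09, adjusted p = 1.16e-05).

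Ldhb and Pdk4 followed. Ldhb measured 6.21, 7.44 and 5.10 FPM in MUNC genomic GM (log2 change 2.67, SE 0.15, adjusted p = 1.08e-09) and 10.1, 7.49 and 8.12 FPM in DM3 (log2 change 3.01, SE 0.15, adjusted p = 1.88e-10), above every control library. Pdk4 measured 226, 218 and 228 FPM in GM (log2 change 2.10, SE 0.19, adjusted p = 2.49e-07) and 107, 131 and 109.9 FPM in DM3 (log2 change 1.82, SE 0.19, adjusted p = 7.52e-07), also with no overlap. It made up 68.5% ± 5.76 of the 4 kinases per kilobase in MUNC genomic GM, 30.3% ± 6.87 in control GM and 12.2% ± 2.96 in control DM3. In DM3 Slc2a3, the high-affinity glucose transporter GLUT3, was higher too (log2 change 0.84, SE 0.10, adjusted p = 2.95e-06), but at 0.970, 0.874 and 0.859 FPM (49, 58 and 44 reads) it stayed low. The authors' deposited table gives it a log2 fold change of 3.84.

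Among the genes lower in MUNC genomic cells, Eno2 measured 2.86, 3.51 and 2.81 FPM in GM (log2 change -1.90, SE 0.24, adjusted p = 1.84e-05) and 11.1, 9.59 and 17.8 FPM in DM3 (log2 change -2.46, SE 0.24, adjusted p = 4.98e-07), all below control. Aldoa measured 1275, 1295 and 1133 FPM in control GM and 756, 938 and 704 FPM in MUNC genomic GM (log2 change -0.63, SE 0.16, adjusted p = 0.00617), and was lower in DM3 (log2 change -0.91). With quantile normalization the GM call of Aldoa ended (adjusted p = 0.0650). Ldha measured 1809, 1631 and 1637 FPM in control GM and 1116, 1185 and 1153 FPM in MUNC genomic GM (log2 change -0.55, SE 0.18, adjusted p = 0.0297), without overlap, yet that call ended in each of 6 fits that left out 1 library (adjusted p 0.0502 to 0.0894). In DM3 the calls of Ldha (-0.63, adjusted p = 0.00970) and Pgk1 (-0.66, adjusted p = 0.0122) ended without MUNC genomic replicate 2 (adjusted p = 0.0554 and 0.0669).

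In DM3 Slc2a1 and Hk2 were lower in MUNC genomic cells. Slc2a1 measured 246, 232 and 236 FPM in control and 133, 79.3 and 97.04 FPM in MUNC genomic DM3 (log2 change -1.23, SE 0.17, adjusted p = 2.41e-05), and Hk2 measured 82.8, 80.9 and 96.8 against 40.05, 31.5 and 45.3 FPM (log2 change -1.15, SE 0.22, adjusted p = 5.08e-04). Neither gene overlapped between the lines. In GM both missed the threshold (-0.59, adjusted p = 0.0570 for Hk2 and -0.46, adjusted p = 0.0543 for Slc2a1). The replicate block called Hk2 (adjusted p = 0.00245), Slc2a1 (0.0217) and Pgk1 (0.0251) lower in GM, and Pgam1 (0.0440), Pkm (0.0450) and Bnip3 (0.0227) lower in DM3. Tpi1, Gapdh and Eno1 were not called in either medium, with changes from -0.23 to 0.05. Of the calls, 5 of 11 in GM (Eno2, Ldhb, Slc16a3, Pdk4 and Ankrd37) and 13 of 16 in DM3 held in every alternative and without each library.

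The MUNC lines were also compared directly. MUNC spliced cells were lower than MUNC genomic cells in 11 genes in GM (background 16.0%) and in 15 in DM3 (20.8%). They were higher in 2 in GM (19.9%), Pdk2 and Ankrd37, and in none in DM3 (23.4%), where limma gave no listed gene that was higher at an unadjusted p under 0.05 and edgeR and DESeq2 called none. By contrast, 1 gene was called higher without MUNC spliced replicate 3, and the replicate block called Hk2 higher (0.35, adjusted p = 0.0336). The block also called Bnip3 (adjusted p = 0.00702), Hk1 (0.0394) and Pgam1 (0.0490) lower in MUNC spliced DM3. Without MUNC spliced replicate 1, 17 were lower in DM3, beside 18.7% of all genes. The totals were 13 (35.8%) and 15 (44.2%), and the medians -0.26 and -0.33 against 0.02 and 0.03 over all genes. Tpi1, Gapdh, Ldhb, Slc16a1, Slc16a3, Slc2a3, Pdk4, Pfkfb4 and Egln3 were lower in both media, which is 81.8% of those lower in GM and 60% of those lower in DM3. Here too the overlap was not counted over all genes. Among the 9 genes lower in both media, Ldhb, Slc2a3 and Pfkfb4 lost a call in at least 1 alternative or left-out library.

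Slc16a3 had the largest difference between the MUNC lines (log2 change -4.48, SE 0.19, adjusted p = 1.44e-11 in GM, and -3.92 in DM3). Slc16a1 measured 82.1, 80.2 and 94.6 FPM in MUNC spliced and 295, 257 and 295 FPM in MUNC genomic DM3 (log2 change -1.71, SE 0.09, adjusted p = 3.14e-10), and Egln3 measured 25.4, 21.6 and 19.4 against 87.4, 66.05 and 86.99 FPM there (log2 change -1.81, SE 0.19, adjusted p = 1.24e-06). In both genes the lowest MUNC genomic library was over 2 times the highest MUNC spliced library. In GM, Pdk4 (log2 change -2.08, SE 0.19, adjusted p = 2.01e-07) and Pfkp (log2 change -1.35, SE 0.22, adjusted p = 1.66e-04) were lower and Pdk2 was higher (log2 change 0.87, SE 0.22, adjusted p = 0.00630) in MUNC spliced cells. Eno2 did not pass between the MUNC lines (0.29, adjusted p = 0.375 in GM and -0.14, adjusted p = 0.678 in DM3), and Ldha did not either (-0.27, adjusted p = 0.263 and -0.05, adjusted p = 0.851). The replicate block also called Pdk3 (0.0118), Gpi1 (0.0354) and Hk1 (0.0350, all adjusted p) lower in MUNC spliced GM. Of the calls, 9 of 13 in GM and 11 of 15 in DM3 held in every alternative and without each library.

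**Figure D5:**
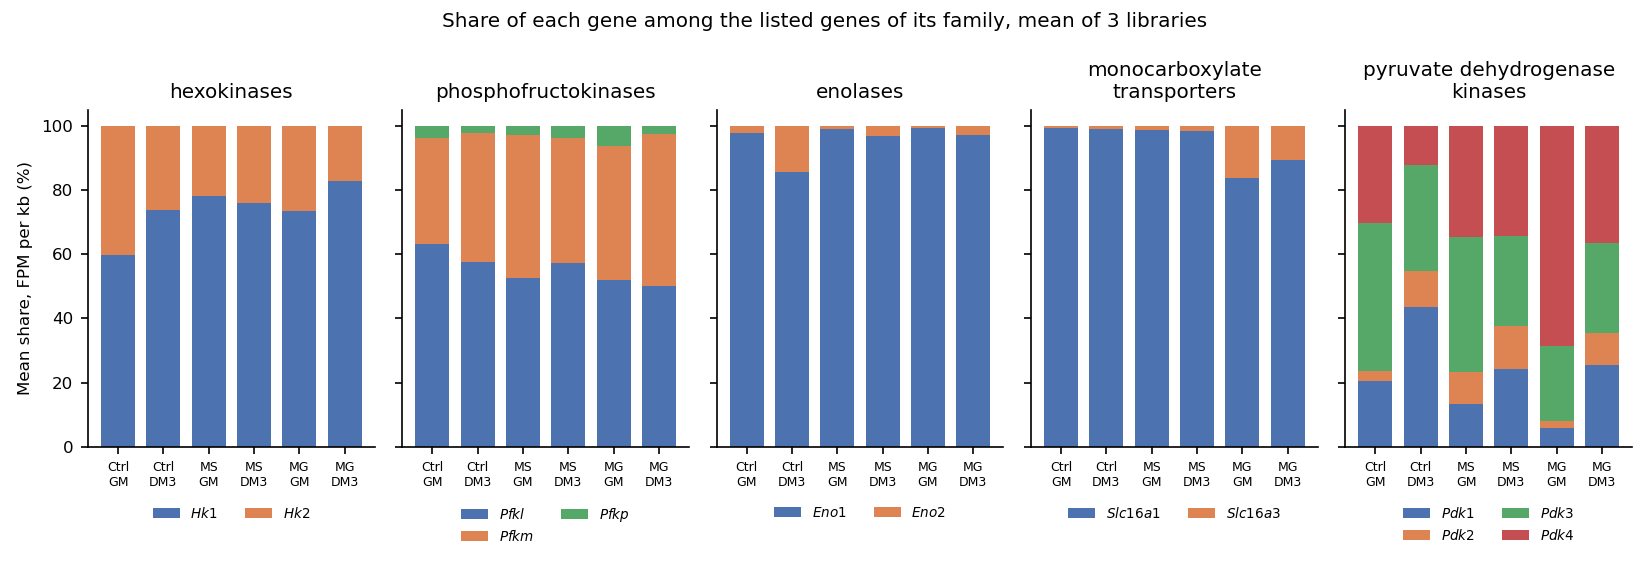
Mean share of each listed gene among the listed genes of its family, in percent of their summed FPM per kilobase, in the 6 groups (3 libraries each). Ctrl is control, MS is MUNC spliced and MG is MUNC genomic. Eno2 takes 14.4% of Eno1 plus Eno2 in control DM3 and at most 3.00% in other groups, with Eno3 not counted. Pdk4 takes 68.5% in MUNC genomic GM.

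Isoform shares per kilobase summarise these shifts. Hk1 made up 59.8% ± 4.03 (SD, n = 3) of Hk1 plus Hk2 in control GM and between 73.6% and 82.8% in the other 5 group means. Among phosphofructokinases, Pfkl held 63.1% ± 2.64 in control GM and 50.3% ± 2.45 in MUNC genomic DM3, and Pfkm held 33.1% ± 2.16 and 47.4% ± 2.28. Pdk1 went from 20.4% ± 4.57 of the 4 kinases in control GM to 43.5% ± 2.44 in control DM3.

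Whether a line responded differently to DM3 than control cells was tested as an interaction. For MUNC spliced cells 5 genes passed (background 14.4%), with Pdk4 higher (7.43% of all genes) and Hk1, Gpi1, Pfkm and Pdk2 lower (6.94%). Pdk4 fell in control cells (-0.67) and was not called in MUNC spliced cells (0.31), an interaction of 0.98 ± 0.26 (SE; adjusted p = 0.0221) that missed the threshold without control GM replicate 3 (adjusted p = 0.0524) or with only the compared groups fitted (0.0619). Pdk2 had the lowest interaction (log2 change -1.47, SE 0.32, adjusted p = 0.00742), with a rise of 2.20 in control and 0.73 in MUNC spliced cells. Equal library sums moved the share of higher genes among all calls of that interaction from 51.7% to 41.4%, and the replicate block called 8 listed genes, 7 of them lower, beside 27.9% of all genes under that block. Without MUNC spliced DM3 replicate 1 the count was 5, beside 1438 calls over all genes (1993 with all libraries). For MUNC genomic cells 4 genes passed (8.81%), Slc16a1, Aldoc and Slc2a3 higher (3.56%) and Hk1 lower (5.25%). Slc16a1 fell by 0.56 in control cells and rose by 0.31 in MUNC genomic cells (log2 change 0.88, SE 0.13, adjusted p = 4.72e-04). The split became 3 higher and 3 lower with equal library sums, and the replicate block called 7, 4 of them lower, beside 16.3% of all genes. Hk1 rose in control cells and was not called within either MUNC line (log2 change -0.72, SE 0.14, adjusted p = 0.00415).

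Further genes of these pathways, taken from 3 lists that do not hold the 36, moved as follows. Of 21 tested genes of the hypoxia response, 15 rose and none fell on differentiation of control cells, beside 29.6% and 28.6% of all genes, with a median change of 0.65 against 0.02 over all genes. In MUNC spliced cells 9 rose (17.2% of all genes) and in MUNC genomic cells 12 rose (26.3%), with none falling (18.4% and 25.1%). Car9, a carbonic anhydrase and HIF target, rose most in control cells (3.55, 4.50 and 2.38 FPM in GM and 27.6, 65.4 and 90.5 FPM in DM3, log2 change 3.67, SE 0.39, adjusted p = 1.49e-06). Against control DM3, 12 were lower (21.0% of all genes) and 1 higher (22.3%) in MUNC spliced DM3. In MUNC genomic DM3 7 were lower (20.9%) and 4 higher (19.3%), and Ero1a, an oxidase of the endoplasmic reticulum, fell most (305, 339.7 and 335 FPM in control and 72.5, 58.1 and 59.5 FPM in MUNC genomic cells, log2 change -2.35, SE 0.27, adjusted p = 3.57e-06). In GM 1 was higher and 2 were lower in either line against the same controls, beside 18.2% and 17.3% of all genes in MUNC spliced and 12.2% and 14.5% in MUNC genomic cells.

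Of 28 tested further genes of glycolysis and pyruvate use, 6 rose and 13 fell on differentiation of control cells, beside 29.6% and 28.6% of all genes. In MUNC spliced cells 5 rose (17.2%) and 4 fell (18.4%), and in MUNC genomic cells 8 rose (26.3%) and 10 fell (25.1%). Against control, 6 were lower (17.3%) and 5 higher (18.2%) in MUNC spliced GM, and 5 lower (21.0%) and 8 higher (22.3%) in DM3. In MUNC genomic cells 6 were lower (14.5%) and 3 higher (12.2%) in GM, and 7 lower (20.9%) and 3 higher (19.3%) in DM3. Eno3, the muscle enolase, was the lowest in MUNC spliced DM3, at 305, 221 and 169 FPM against 439, 363 and 378 FPM in control (log2 change -0.80, SE 0.19, adjusted p = 0.00244). Of 6 tested regulators of glucose uptake, 4 rose (29.6%) and 1 fell (28.6%) in control differentiation. Txnip, a glucose-responsive inhibitor of glucose uptake, rose most, from 8.31, 35.4 and 8.39 FPM in GM to 480.3, 702 and 433 FPM in DM3 (log2 change 5.17, SE 0.47, adjusted p = 4.17e-07). Against control in DM3, 3 of the 6 regulators were lower (21.0%) and 1 higher (22.3%) in MUNC spliced cells. In MUNC genomic DM3 3 were lower (20.9%) and none higher (19.3%). In GM 1 was lower (17.3%) and 1 higher (18.2%) in MUNC spliced cells, and 2 were lower (14.5%) in MUNC genomic cells.

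The authors' deposited tables of their own comparisons cover 5 of these contrasts. At an adjusted p under 0.05 in the authors' deposited tables, 18 of the 36 genes were called in control differentiation (43.2% of all genes with an adjusted p there), 18 and 21 in MUNC spliced GM and DM3 (25.3% and 33.1%) and 11 and 21 in MUNC genomic GM and DM3 (19.9% and 39.3%). Of the calls given above, 16 of 16, 17 of 18, 21 of 23, 9 of 11 and 16 of 16 were also called in the authors' deposited tables, in the same order.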

How the data were processed

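The 18 libraries were measured by RNA sequencing of polyadenylated RNA. The deposited signal values were used as FPM, fragments scaled for library size and not divided by gene length. The labels call them FPKM, but each library's values are whole multiples of 1 step shared by all genes. Whole reads were recovered on that step for 100% of values (tolerance 0.05 reads), 38416702 to 68788327 per library. The submitters' processing notes name STAR, HTSeq, DESeq2 and build mm10, with roles and versions not given in the sources used here. The authors deposited 5 tables of their own comparisons with log2 fold changes and adjusted p-values, whose column names are those of DESeq2, per the file headers. Groups were taken from the sample titles, since another label names the cell stage differently for some samples.

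The 13869 of 35275 genes that reached 0.5 FPM in 3 or more libraries were tested on log2(FPM + 1) with limma 3.58.1 (R 4.3.3, empirical Bayes with trend, 12 residual degrees of freedom), with all 18 libraries in 1 fit and Benjamini-Hochberg adjustment over all genes tested. A gene was called at an adjusted p under 0.05. The pseudocount of 1 understates changes of genes at low levels. The fitting script was tested on simulated data. Alternatives were a pseudocount of 0.1, no filter, equal library sums, quantile normalization, edgeR 4.0.16 and DESeq2 1.42.0 on the recovered reads, a fit of the compared groups only, a replicate block, and each library left out.

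The gene list, the further lists and the markers were chosen with earlier results of these data known. For each direct comparison the rule named up to 3 called genes with the highest and up to 3 with the lowest change that had no overlap between groups and a mean of 5 FPM or more in the higher one, and for each interaction the highest and the lowest. Other genes with library values were picked after their values were seen. Lack of overlap was fixed in advance for genes named by the rule and adds no support. Between 5250 and 8705 of the 13869 tested genes had no overlap, depending on the comparison. The labels number replicates 1 to 3 in each group. Over same-numbered samples, the lowest correlation of deviations from group means was over 0.1 in 6 of 9 direct comparisons (0.171 to 0.727) and below it in differentiation of either MUNC line and between the MUNC lines in DM3 (lowest 0.0163). The cut of 0.1 was a choice. Calls gained with the block in direct comparisons are given beside the result or, for differentiation of either MUNC line, in the last section. Promoters came from RefSeq (GRCm38.p6). Ldhb, Slc2a3 and Aldoc rest on few reads in some groups.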

Additional observations from a re-analysis of the deposited data

Results flagged for a closer look

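The following genes changed from GM to DM3 by a different amount in a MUNC line than in control cells, by the interaction term of the limma fit. In MUNC spliced cells the interaction, in log2 change, was -0.71 for Hk1 (adjusted p = 0.00533), -1.08 for Gpi1 (adjusted p = 0.00390), -0.85 for Pfkm (adjusted p = 0.00675), -1.47 for Pdk2 (adjusted p = 0.00742) and 0.98 for Pdk4 (adjusted p = 0.0221). Hk1, Gpi1 and Pfkm rose in control cells by 0.59, 1.10 and 0.81 and measured -0.12, 0.02 and -0.04 in MUNC spliced cells, where none was called.

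In MUNC genomic cells the interaction was -0.72 for Hk1 (adjusted p = 0.00415), 0.84 for Aldoc, the brain aldolase (adjusted p = 0.0198), 0.88 for Slc16a1 (adjusted p = 4.72e-04) and 0.59 for Slc2a3 (adjusted p = 0.0110). Aldoc fell in control cells (-0.70) and was not called in MUNC genomic cells (0.15), and its interaction missed the threshold in 4 fits that left out 1 library (adjusted p 0.0505 to 0.0568). At such low levels the size depends on the scale: over the alternatives that kept all libraries the change of Aldoc in control cells ran from -3.19 to -0.68, its interaction from 0.82 to 3.49 and the interaction of Slc2a3 from 0.58 to 2.35. The interaction of Slc2a3 missed the threshold in 2 of these alternatives (adjusted p 0.0970 and 0.112). Both interactions share the control libraries.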

How the results depend on the processing

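No called gene of the list turned direction in any alternative. With all libraries kept, the counts of called genes that moved by more than 1.5 times were those of MUNC spliced differentiation, with 5 where only the compared groups were fitted, and, in the replicate block fit, 8 for the MUNC spliced interaction and 7 for the MUNC genomic interaction. With 1 library left out, MUNC spliced differentiation gave 6 without MUNC spliced GM replicate 3 and 7 without DM3 replicate 2, and MUNC genomic against control in GM gave 7 without control replicate 1 and 7 without MUNC genomic replicate 2. Over all genes the calls fell too, from 4933 to 3297 and 3693, and from 3711 to 3020 and 2793. With the block the counts for direct comparisons were 20 for control, 13 for MUNC spliced and 24 for MUNC genomic differentiation, 20 and 23 for MUNC spliced against control in GM and DM3, 14 and 19 for MUNC genomic against control, and 16 and 19 between the MUNC lines. The share of all genes called with the block ran from 37.4% to 65.3% in these comparisons. In 3 of these comparisons the lowest same-number correlation was under the chosen cut of 0.1. Even so, 26 of 27 same-numbered pairs correlated best with their own number. The main fit had no block and so ignored any variation shared by same-numbered libraries. With the block Hif1a was also called higher (adjusted p = 0.0132) and Pdk3 lower (0.0104) in MUNC spliced differentiation. In MUNC genomic differentiation the block called Pdk3 higher (0.0104) and Eno1 lower (0.0467). Leaving out 1 library at a time gave 15 to 16 calls for control, 6 to 12 for MUNC spliced and 15 to 20 for MUNC genomic differentiation. It gave 13 to 16 and 21 to 23 for MUNC spliced against control in GM and DM3, 7 to 11 and 13 to 16 for MUNC genomic, 10 to 13 and 13 to 17 between the MUNC lines, 4 to 6 for the MUNC spliced and 3 to 5 for the MUNC genomic interaction. The shares over all genes are not given for each of these fits. The causes were not tested. Depth limits Slc2a3, Ldhb and Aldoc, and each group held 3 libraries. The overexpression itself was not checked, since MUNC was not analysed here.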
